A study of Mus musculus with 8 samples.

Results

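mmu-miR-23a-3p, mmu-miR-23b-3p, mmu-miR-24-3p, mmu-miR-27a-3p and mmu-miR-27b-3p (written without the species prefix from here on) are the 3′ arm products of the mouse miR-23a and miR-23b clusters, and their kidney levels after tacrolimus differed from control by 0.028 to 0.094 on the log2 scale, with no call for any of the 5. They were taken by name from the array's annotation and make up 5 of its 1023 mouse miRNA names and 10 of its 2645 probes for mouse miRNAs. The study asked whether tacrolimus, a calcineurin inhibitor used against transplant rejection that can injure the kidney, is accompanied by altered kidney miRNA levels. Total RNA of whole kidneys from CD-1 mice, an outbred stock, was hybridised to one-colour (Cy3) Agilent miRNA arrays, with 4 arrays after 28 days of tacrolimus (1 mg/kg daily) and 4 arrays after physiological serum. Each array received 0.1 µg of RNA with an integrity number of 9. Neither sex nor age is given in the sources used here. Whether the replicates came from separate mice is not stated in the labels, and the p-values therefore cover the spread among these arrays, which could be technical. In whole-kidney RNA, fewer cells of a type and less of a miRNA per cell cannot be told apart.

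A miRNA is cut from a hairpin precursor and guides a silencing complex to messenger RNAs, mostly through its seed, the bases near its 5′ end that pair with the target. Each of the clusters is transcribed as a single precursor carrying a miR-23, a miR-27 and a miR-24 hairpin, after which every mature miRNA has its own rate of processing and decay. The clusters are well known from blood vessels, where miR-23 and miR-27 promote endothelial sprouting, and from heart and immune cells, where miR-24 restrains cell death and miR-27 acts on T cell differentiation. miR-27 is also a known brake on fat cell formation.

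In the RefSeq annotation of GRCm38.p6 the a cluster (Mir23a, Mir27a and Mir24-2) lies at chr8:84208518-84208921 on the plus strand and spans 404 bases. No protein-coding gene spans it, Mir3074-2 overlaps Mir24-2, and the nearest protein-coding gene, Zswim4, lies 2021 bases away. The b cluster (Mir23b, Mir27b and Mir24-1) lies at chr13:63300484-63301275 on the plus strand, spans 792 bases and sits within the protein-coding gene Aopep, with Fancc 59 bases away. RefSeq held the mature sequence of 4 of the 5 members. They are shown, 5′ to 3′ with the seed (bases 2 to 8) in capitals, because the seed sets which members share targets and the 3′ ends set what the probes can tell apart.
miR-23a-3p, chr8:84208563-84208583: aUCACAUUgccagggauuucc
miR-27a-3p, chr8:84208727-84208747: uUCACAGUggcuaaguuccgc
miR-27b-3p, chr13:63300760-63300780: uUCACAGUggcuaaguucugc
miR-24-3p, chr8:84208875-84208896 and chr13:63301251-63301272: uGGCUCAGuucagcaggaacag
miR-27a-3p and miR-27b-3p have the same seed and differ by a single substitution, C19U, with positions counted from 1 at the 5′ end and miR-27a-3p given first. The miR-23a and miR-27 seeds share their first 5 bases, while miR-24 has a seed of its own. miR-24-3p is encoded identically by 2 hairpins, Mir24-2 in the a cluster and Mir24-1 in the b cluster, so that its signal belongs to both. Among other mature mouse miRNAs in RefSeq, 4 share the miR-24 seed and 0 share that of miR-23a or miR-27. None of these 4 (miR-5124b, miR-6369, miR-6410 and miR-6413) is on the array.

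For the 4 members with a sequence at hand, the probes pair with the 3′ end of the miRNA. The probes read for the miR-27 partners are shown with the base opposite position 19 in capitals.
miR-27a-3p probe: gcGgaacttagccactg
miR-27b-3p probe: gcAgaacttagccactg
Each is 17 bases long and pairs with bases 5 to 21 of its miRNA, and the partners' probes differ at 1 base. The probes read for miR-23a-3p and miR-23b-3p also differ at 1 base over the 17 bases they share. Signal may therefore pass between partners, and the a and b values are uncertain as separate measurements. How much was not tested.

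Every one of the 10 member probes was detected on every array. Over these 80 readings (10 probes on 8 arrays), each kept spot was well above background, 14 to 20 spots were kept per reading, and the spread between spots of a probe (coefficient of variation) was 2.1% to 8.3%. Spot intensities, which are linear and as the scanner software gives them, were divided on each array by the 75th percentile of intensity over the 252 probes that every one of the 8 arrays detected. After log2, a value of 0 equals that percentile. Each miRNA was read from its brightest probe. All 5 members passed the filter on dim probes (detected on at least 4 of 8 arrays) and stand among 194 tested miRNAs. The miRNA with the largest of the 5 differences, miR-27a-3p, stood at 0.094 (tacrolimus minus control, log2), and the smallest difference, that of miR-23a-3p, was 0.028.

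From the a cluster, miR-23a-3p, whose seed family is known from endothelial cells, had scaled log2 signals of 0.69, 0.72, 0.74 and 0.81 on tacrolimus arrays 1 to 4, against 0.71, 0.60, 0.76 and 0.79 on control arrays 1 to 4. The groups overlapped, and the lowest array was control 2. The means were 0.74 ± 0.05 after tacrolimus and 0.72 ± 0.08 in controls (SD, n = 4 arrays each), a difference of 0.028 (SE 0.067, 95% interval -0.12 to 0.18). On the linear scale that is 1.02-fold, with an interval of 0.919 to 1.13. Its intensities before scaling were 2761 to 3891 on the tacrolimus arrays and 2420 to 4133 on the control arrays.

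miR-27a-3p, a miRNA known to restrain fat cell formation, had scaled log2 signals of 0.22, 0.28, 0.19 and 0.30 on the tacrolimus arrays, against 0.23, 0.06, 0.16 and 0.17 on the control arrays. Control 1 lay above tacrolimus 1 and tacrolimus 3, so that the groups overlapped, while control 2, control 3 and control 4 lay below all tacrolimus arrays. The means were 0.25 ± 0.05 after tacrolimus and 0.16 ± 0.07 in controls (SD, n = 4 each), a difference of 0.094 (SE 0.064, 95% interval -0.05 to 0.24), or 1.07-fold (0.965 to 1.18). It was the member with the smallest p, and it missed the threshold (limma with Benjamini-Hochberg, adjusted p = 0.535).

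From the b cluster, miR-23b-3p had scaled log2 signals of 0.83, 0.91, 0.96 and 0.85 on the tacrolimus arrays, against 0.87, 0.69, 0.91 and 0.92 on the control arrays. Apart from control 2, the control values lay among the tacrolimus values. The means were 0.89 ± 0.06 after tacrolimus and 0.85 ± 0.11 in controls (SD, n = 4 each), a difference of 0.040 (SE 0.073, 95% interval -0.13 to 0.20), or 1.03-fold (0.917 to 1.15).

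miR-27b-3p had scaled log2 signals of -0.08, -0.08, 0.01 and -0.06 on the tacrolimus arrays, against -0.01, -0.22, -0.08 and -0.09 on the control arrays. Its highest array was tacrolimus 3 and its lowest control 2. The means were -0.05 ± 0.04 after tacrolimus and -0.10 ± 0.09 in controls (SD, n = 4 each), a difference of 0.048 (SE 0.066, 95% interval -0.10 to 0.20), or 1.03-fold (0.932 to 1.15).

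miR-24-3p, the product of both clusters, had scaled log2 signals of 0.70, 0.84, 0.80 and 0.73 on the tacrolimus arrays, against 0.76, 0.61, 0.71 and 0.70 on the control arrays. The groups overlapped, since control 1, control 3 and control 4 lay above tacrolimus 1, and control 1 also above tacrolimus 4. The means were 0.77 ± 0.06 after tacrolimus and 0.70 ± 0.06 in controls (SD, n = 4 each), a difference of 0.069 (SE 0.065, 95% interval -0.08 to 0.22), or 1.05-fold (0.948 to 1.16).

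**Figure D1:**
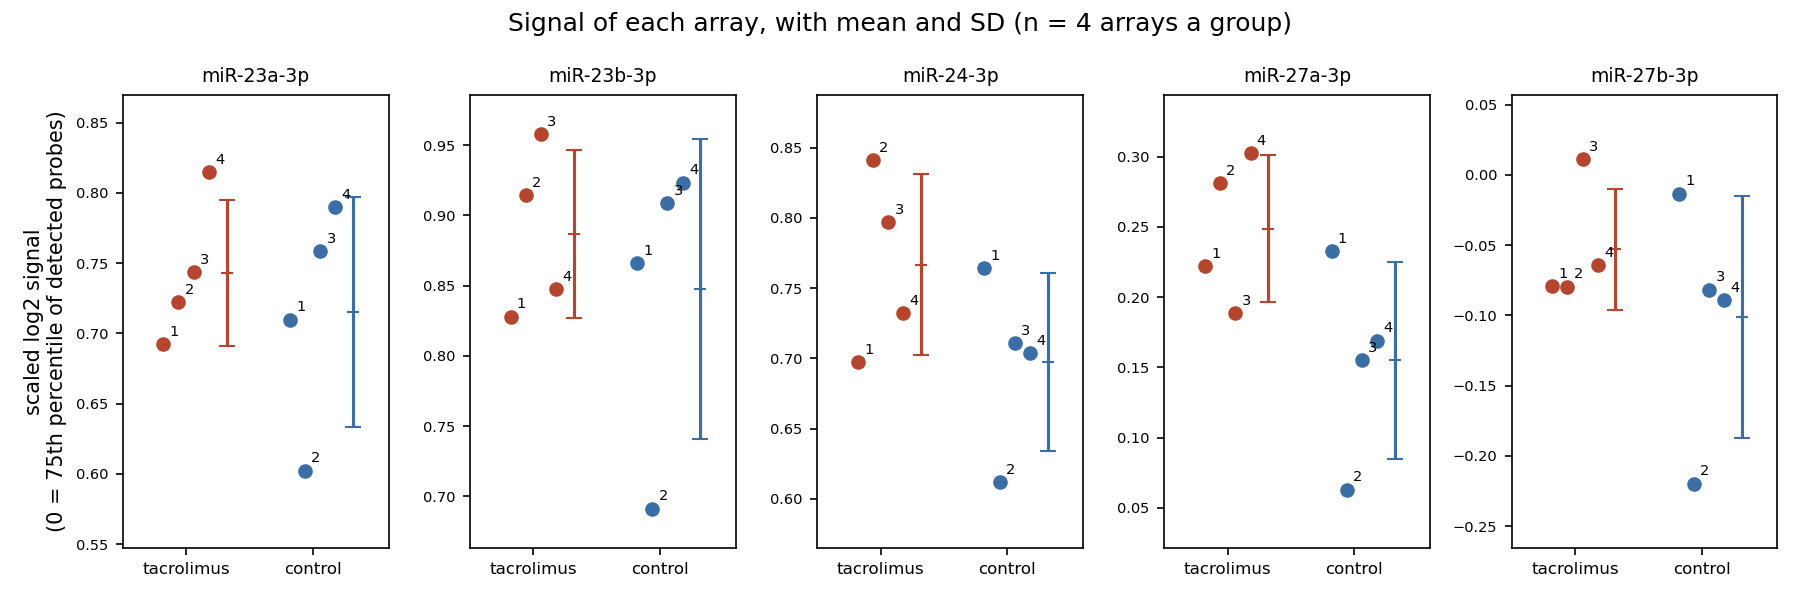
Scaled log2 signal (y axis, 0 is the 75th percentile of the detected probes) of each member's brightest probe on each array (points, numbered by replicate), tacrolimus left and control right, with mean ± SD (n = 4). The panels have the same span but their own y ranges, and control 2 is the lowest array in all 5 panels.

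Of the 5 members, 0 passed the threshold (limma, adjusted p under 0.05), where 3.09% of the 194 tested miRNAs did, all of them higher. At an unadjusted p under 0.05 there were also 0 members, against 15.5% of all tested miRNAs. The groups were fully separated for 0 of the 5 members, against 10.3% of all tested miRNAs. All 5 differences lay above 0, as did 59.3% of those tested, but with median scaling only that of miR-27a-3p did. Their median was 0.048 and the median of all tested miRNAs was 0.039. The adjusted p was 0.858 for miR-23a-3p, 0.804 for miR-23b-3p, 0.646 for miR-24-3p and 0.747 for miR-27b-3p (limma). Without tacrolimus 4, and with the scaling probes chosen anew among the remaining arrays, the 5 differences lay between -0.107 (miR-23a-3p) and -0.031 (miR-24-3p). The median of all tested miRNAs then stood at -0.064. In the scaling used above, the mean of tacrolimus 1 to 3 stayed above the control mean for every member. The change of sign thus came with the new scaling. The scaling used above rests on tacrolimus 4 as well, since its probes had to be detected on all 8 arrays. Without control 2, which was the lowest of the 8 arrays for all 5 members, miR-23a-3p stood at -0.0094 and miR-23b-3p at -0.012, and the other members stayed above 0.

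With the scaling used here, these differences were measured with less error than most on the array. The SE was 0.064 to 0.073 for the members and its median over the tested miRNAs was 0.093. For miR-27a-3p the SE was smaller than that of 96.4% of tested miRNAs and for miR-23b-3p smaller than that of 79.9%. Over the 5 members the 95% intervals reached from -0.13 to 0.24 on the log2 scale, or from 0.917-fold to 1.18-fold. Levels in tacrolimus kidneys above 1.18-fold or below 0.917-fold of control lay outside the interval of every member in this fit. The SE and these bounds depend on the scaling. For miR-27a-3p the SE was 0.24 without scaling and 0.40 with the 75th percentile of all probes. A p that misses the threshold does not show that the levels were equal.

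**Figure D2:**
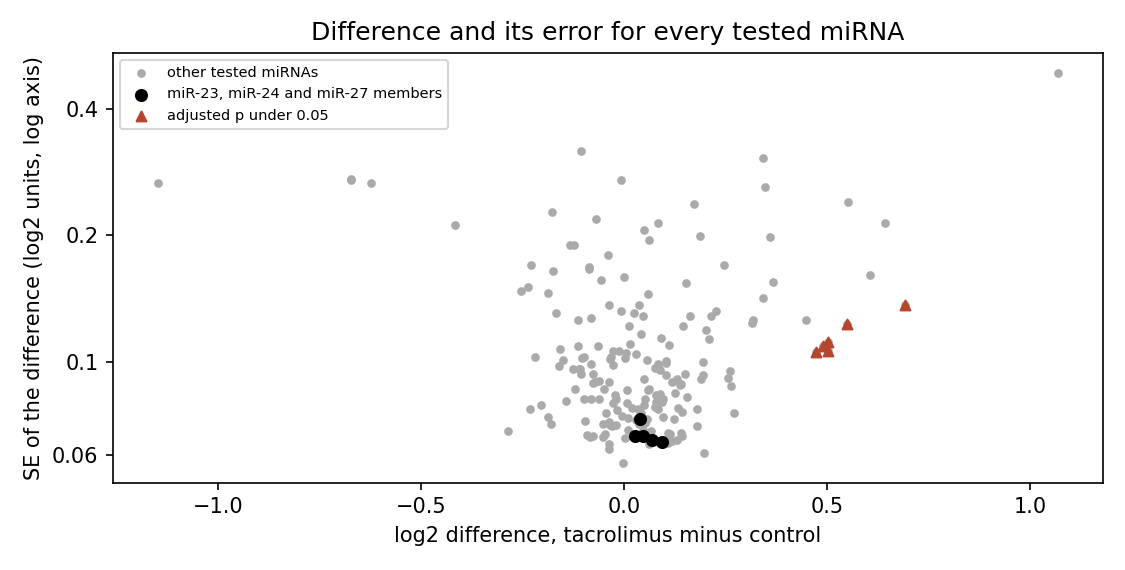
Difference between tacrolimus and control (x axis, log2) and its SE (y axis, log2 units on a log axis) for the 194 tested miRNAs. The 5 members (black) sit at the low-error end near 0, with SE of 0.064 to 0.073, apart from the 6 miRNAs past the threshold (red triangles).

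The second probe of each member also gave differences above 0 in the same scaling. In a fit over the 357 probes detected on at least 4 arrays, the second probe stood at 0.032 (SE 0.070) for miR-23a-3p, 0.028 (SE 0.073) for miR-23b-3p and 0.056 (SE 0.068) for miR-24-3p. It stood at 0.11 (SE 0.065) for miR-27a-3p and 0.017 (SE 0.071) for miR-27b-3p. The smallest adjusted p among these second probes was 0.476 (miR-27a-3p, limma). Of the 5 second probes 0 passed the threshold and 0 had an unadjusted p under 0.05, against 0% and 14.8% of the 357 probes in this fit. The probes of a miRNA read the same RNA and are no replicates of the condition.

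**Figure D3:**
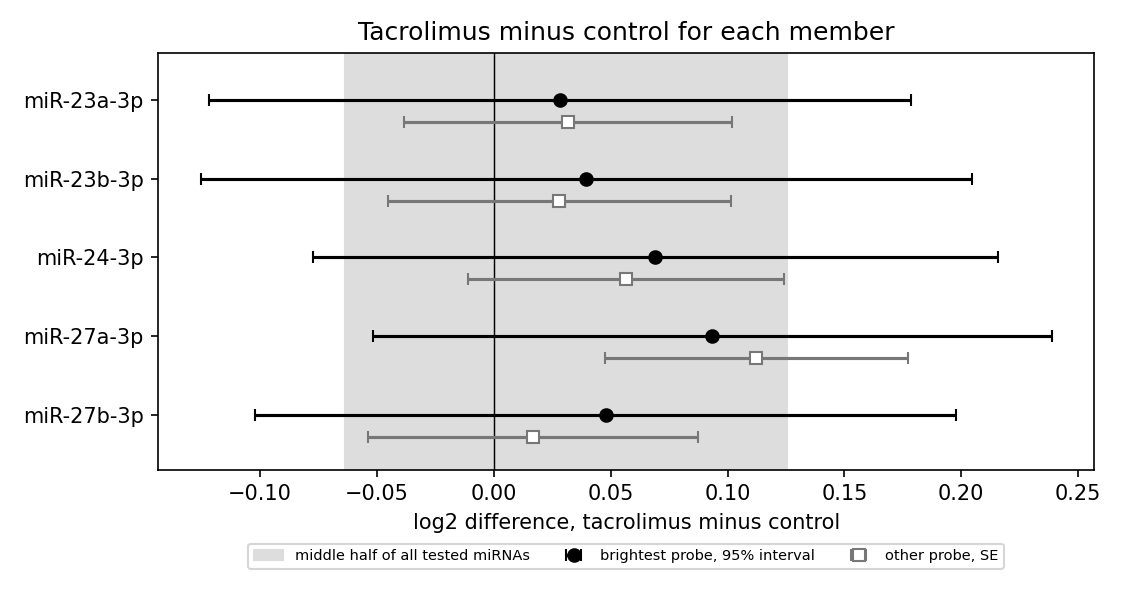
Log2 difference, tacrolimus minus control (x axis), of each member's brightest probe with its 95% interval (filled) and of its other probe with its SE (open). The grey band is the interquartile range of all tested miRNAs, and all 10 probe values lie within it.

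The a and b clusters were compared through their near-identical partners, as the change of the within-array log2 ratio of the a miRNA over the b miRNA. The size of such a ratio depends on the 2 probes and is not read here, only how it differs between arrays. The ratio of miR-23a-3p over miR-23b-3p was -0.14, -0.19, -0.21 and -0.03 on tacrolimus arrays 1 to 4, against -0.16, -0.09, -0.15 and -0.13 on the control arrays. The tacrolimus values lay on both sides of the control values. The means were -0.14 ± 0.08 after tacrolimus and -0.13 ± 0.03 in controls (SD, n = 4 each), so that the ratio changed by -0.011 (exact two-sided permutation p = 0.80, adjusted over the 2 pairs 0.80). Changes between -0.12 and 0.12 were not rejected by that test at 0.05.

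The ratio of miR-27a-3p over miR-27b-3p was 0.30, 0.36, 0.18 and 0.37 on the tacrolimus arrays, against 0.25, 0.28, 0.24 and 0.26 on the control arrays. Tacrolimus 1, 2 and 4 lay above all control arrays, while tacrolimus 3 lay below all of them. The means were 0.30 ± 0.09 after tacrolimus and 0.26 ± 0.02 in controls (SD, n = 4 each), a change of 0.046 (exact two-sided permutation p = 0.343, adjusted over the 2 pairs 0.686), and changes between -0.10 and 0.13 were not rejected at 0.05. With 4 against 4 arrays the smallest p this test can give is 0.0286. Without tacrolimus 3 the change was 0.087 (exact permutation p = 0.0286, the smallest that remains possible, adjusted 0.0571), while it was 0.026 without tacrolimus 2 and 0.024 without tacrolimus 4. Read from the other probes it was 0.096 (exact permutation p = 0.0571, adjusted 0.114), and with outlier spots kept it was 0.013. For miR-23 the change was 0.012 without tacrolimus 3, 0.0047 without tacrolimus 2 and 0.0030 without control 2, so its sign rested on single arrays.

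**Figure D4:**
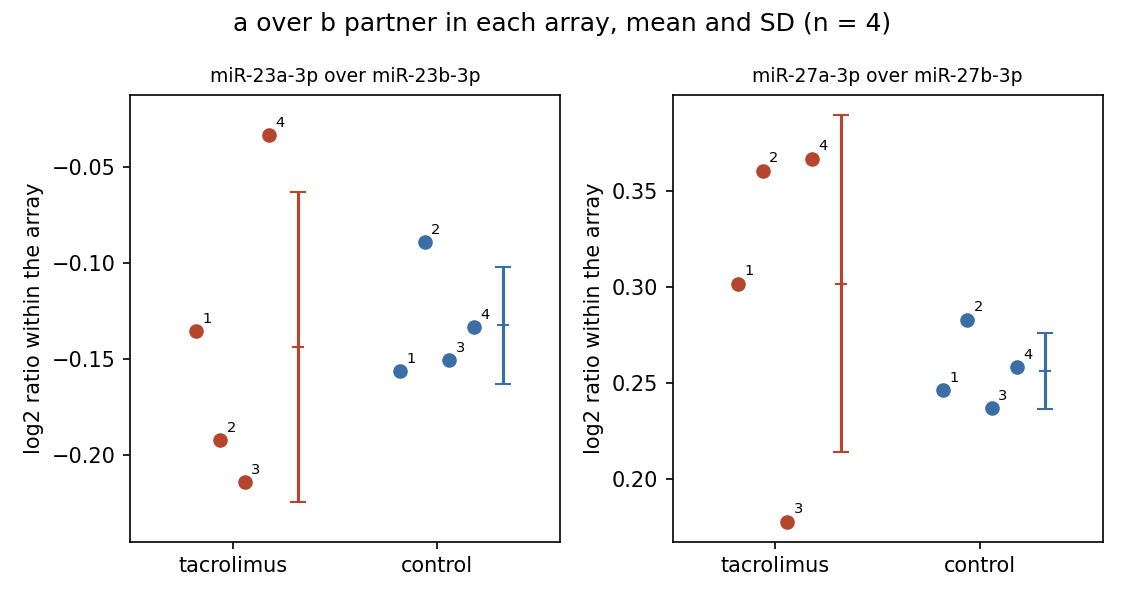
Within-array log2 ratio (y axis) of the a over the b partner on each array (points, numbered by replicate), tacrolimus left and control right, with mean ± SD (n = 4) and equal spans in both panels. For miR-27, tacrolimus 1, 2 and 4 lie above the controls and tacrolimus 3 below them.

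Averaged over its miR-23 and miR-27 members, the a cluster stood at 0.50 ± 0.05 on the tacrolimus arrays and 0.44 ± 0.07 on the control arrays, a difference of 0.061. The b cluster stood at 0.42 ± 0.05 on the tacrolimus arrays and 0.37 ± 0.09 on the control arrays, a difference of 0.044 (SD, n = 4 arrays each). These means are descriptions, and no test was made of them.

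The opposite arms of the same hairpins (miR-23a-5p, miR-23b-5p, miR-24-1-5p, miR-24-2-5p, miR-27a-5p and miR-27b-5p) are on the array. So are miR-3074-5p, miR-3074-1-3p and miR-3074-2-3p, from the separate Mir3074 genes that overlap the miR-24 hairpins. These make 9 miRNAs in all. Read from their brightest probes, 8 of the 9 were detected on no array of either group. miR-24-1-5p was detected on tacrolimus 2 and tacrolimus 3 and on 0 control arrays, at -5.93 and -5.91, next to the floor of -5.96 set for undetected values. None of the 9 passed the filter and 0 were tested, so they give no measure by which the a and b clusters could be told apart.

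Across the 8 arrays Pearson's r was above 0 for every pair of members, but the rank correlation of some pairs was near 0. Pearson's r of scaled log2 signal was 0.73 between miR-23a-3p and miR-23b-3p and 0.61 between miR-27a-3p and miR-27b-3p. Between members of the b cluster, miR-23b-3p and miR-27b-3p, it was 0.81, and between those of the a cluster, miR-23a-3p and miR-27a-3p, it was 0.60. miR-24-3p had r of 0.43 with miR-23a-3p, 0.77 with miR-23b-3p, 0.72 with miR-27a-3p and 0.76 with miR-27b-3p. Across clusters, r was 0.59 for miR-23a-3p with miR-27b-3p and 0.46 for miR-23b-3p with miR-27a-3p, where Spearman's rho was only 0.14 and 0.048. Spearman's rho was lower than r for most pairs. It was 0.52 for the miR-23 partners and 0.62 for the miR-27 partners. Within a cluster it was 0.29 for miR-23a-3p with miR-27a-3p and 0.29 for miR-23b-3p with miR-27b-3p. For miR-24-3p rho was 0.31 with miR-23a-3p, 0.64 with miR-23b-3p, 0.62 with miR-27a-3p and 0.64 with miR-27b-3p. These are descriptions over 8 points that share the array, its scaling and, for control 2, a common low value.

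Among the other 189 tested miRNAs, those with the highest Pearson correlation over the 8 arrays were named for each member. For miR-27a-3p these were miR-322-5p (0.93, and 0.95 without the 2 arrays farthest from its median), miR-872-5p (0.92 and 0.91) and let-7c-5p (0.89 and 0.82). For miR-24-3p they were let-7a-5p (0.92 and 0.82), let-7c-5p (0.89 and 0.50) and miR-1839-3p (0.88 and 0.76). For miR-23a-3p they were miR-3096b-3p (0.95 and 0.86), miR-148a-3p (0.80 and 0.50) and miR-487b-3p (0.78 and 0.63). For miR-27b-3p they were miR-126a-5p (0.90 and 0.55), miR-1839-3p (0.83 and 0.54) and let-7a-5p (0.83 and 0.68). For miR-23b-3p they were miR-652-3p (0.79 and 0.54), miR-151-5p (0.78 and 0.57) and miR-26b-5p (0.78 and 0.0069), the last of which rested on control 2 and tacrolimus 3. The median correlation of a member with the other tested miRNAs was 0.18 for miR-23a-3p and 0.30 for miR-24-3p.

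Other miRNAs known from blood vessels and angiogenesis differed by a median of 0.060, against 0.039 for all tested miRNAs. Of 18 such miRNAs 17 were tested, 13 lay above 0 and 4 below, and 0 were called. Over all tested miRNAs 59.3% lay above 0, 3.09% were called and 15.5% had an unadjusted p under 0.05 (limma). The 1 member of this list at an unadjusted p under 0.05 was miR-378a-3p at -0.19 (SE 0.074, adjusted p = 0.273, limma). The endothelial miR-126a-3p stood at -0.03 (SE 0.071) and miR-126a-5p, from the other arm of its hairpin, at 0.06 (SE 0.086). miR-221-3p and miR-222-3p, which restrain endothelial growth, stood at 0.01 (SE 0.069) and -0.03 (SE 0.103), and miR-130a-3p at 0.23 (SE 0.132). The highest of the list was miR-210-3p, the hypoxia-induced miRNA, at 0.36 (SE 0.198, adjusted p = 0.452, limma).

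Over the whole series, 147 to 215 miRNAs were detected per array by their brightest probe. Of 6 tubule miRNAs, which mark kidney tissue, 5 were tested and miR-215-5p was not detected, while liver (miR-122-5p) and neural markers (miR-124-3p and miR-9-5p) were detected on no array. Of 3 striated muscle markers, miR-133a-3p and miR-206-3p were detected on no array and miR-1a-3p on tacrolimus 2 and tacrolimus 3 and on 0 control arrays. Tacrolimus 4 had the widest spread of negative controls (SD 20.01, with 10.48 for control 1 and 9.69 for control 3 the next) and the fewest miRNAs (147). It was also the only array with a quality metric of the scanner software out of range (1 metric). The tacrolimus arrays filled 1 row of the single slide and the control arrays the other, so treatment cannot be told apart from row. Markers of other cells differed between the same arrays. Summed scaled signals of 7 leukocyte miRNAs were 0.856 to 1.20 on the tacrolimus arrays and 0.583 to 0.880 on the control arrays, with 7 of 7 differences above 0, 4 at an unadjusted p under 0.05 and 0 called. Those of 3 erythrocyte miRNAs were 1.88 to 2.50 on the tacrolimus arrays and 2.09 to 5.81 on the control arrays, with 3 of 3 below 0 and at an unadjusted p under 0.05, and 0 called. Over all tested miRNAs 15.5% had such a p and 3.09% were called. Of 5 smooth muscle and stromal miRNAs 3 were called higher (miR-199a-3p, miR-199a-5p and miR-214-3p, each with an adjusted p of 0.0476, limma), while miR-143-3p stood at 0.030 and miR-145a-5p at -0.075. Under 14 of 24 other settings, among them a replicate block and no scaling, no miRNA was called at all. The part of these cells in the member values was not tested.

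**Figure D5:**
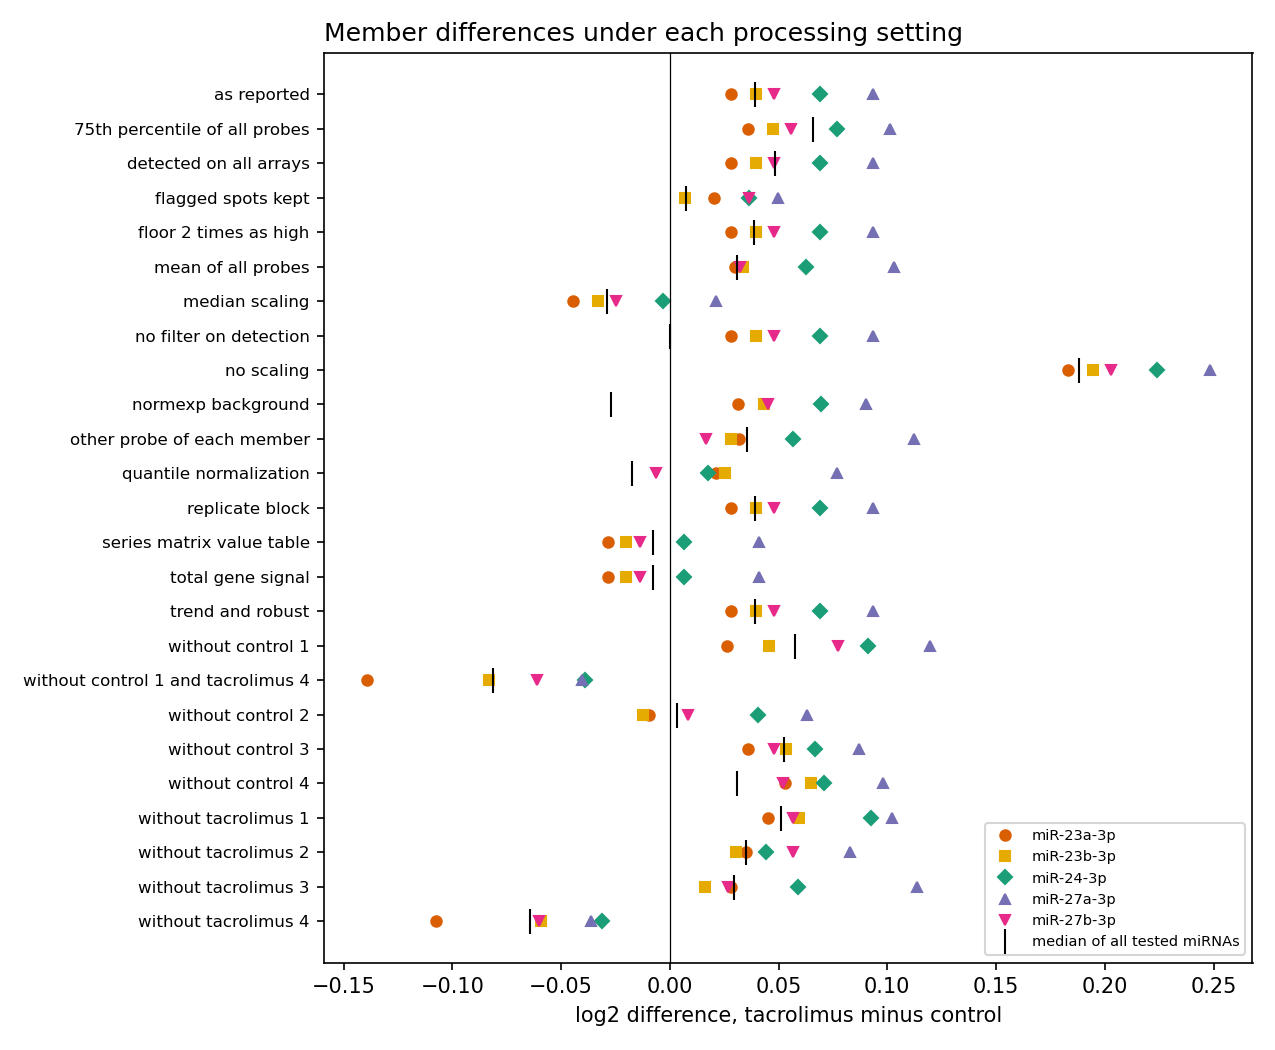
Log2 difference, tacrolimus minus control (x axis), of each member under each processing setting (rows), with the median of all tested miRNAs as a black bar. All 5 members lie below 0 in the rows without tacrolimus 4 and above 0 without scaling, where the bar stands at 0.188, and miR-24-3p and miR-27a-3p lie right of the bar in all 24 alternatives.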

How the data were processed

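Kidney RNA was read on 8 arrays, 4 tacrolimus and 4 control. The authors deposited spot intensities on a linear scale from Agilent Feature Extraction 10.7.3.1, with background subtracted and spatial trends removed per the file headers and no scaling between arrays. The deposited value table equalled the software's total gene intensity in 100% of cells (relative tolerance 1e-06), with 0.1 for undetected miRNAs. Limma is also named, without a role, in the submitters' processing notes.

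Flagged non-uniform and population-outlier spots were left out, the rest averaged per probe. Detection of a probe required a share of 0.5 or more of those spots marked well above background. Values were scaled, floored at -5.96 and put on log2. Groups were compared with limma 3.58.1 in R 4.3.3 (two-sided, no covariate, Benjamini-Hochberg over 194 miRNAs, threshold 0.05, 9.17 degrees of freedom). SE and 95% intervals are limma's. Ratios were compared by exact two-sided permutation over arrays. The limma fit and the permutation test were tried on simulated miRNA values. The spot, detection, scaling and probe steps were not part of that simulation. The number of arrays limits precision. Named were the 5 members, the opposite arms and opposite-strand miRNAs of their hairpins, per member the 3 most correlated miRNAs, and members of cell type and vascular lists. Members and lists were chosen with earlier results of these data known. The array's annotation uses an older assembly, so coordinates are RefSeq's. The alternatives were 24 settings.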

Additional observations from a re-analysis of the deposited data

Results flagged for a closer look

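The value of miR-27b-3p on tacrolimus 3 was 0.011 (scaled log2), whereas the other 3 tacrolimus arrays averaged -0.07, a gap of 0.09 that set this array apart within its group. Of 38 sets of 4 arrays looked at, 1 stood out in this way, where chance gives 1.9. On the same array the miR-27 ratio lay below the controls.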

How the results depend on the processing

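Over 24 alternative settings none of the 120 member differences passed the threshold (lowest adjusted p 0.302, limma) or an unadjusted p of 0.05 (lowest 0.0729), and they ranged from -0.14 to 0.25. Their sign was not stable. With median scaling miR-23a-3p stood at -0.044, miR-23b-3p at -0.033, miR-24-3p at -0.0033 and miR-27b-3p at -0.025. With total gene signal, and with the deposited value table that equals it, miR-23a-3p stood at -0.028, miR-23b-3p at -0.020 and miR-27b-3p at -0.014, and with quantile normalization miR-27b-3p at -0.0064. Without control 1 and tacrolimus 4, chosen after seeing the data, the values were -0.139 for miR-23a-3p, -0.083 for miR-23b-3p, -0.039 for miR-24-3p, -0.040 for miR-27a-3p and -0.061 for miR-27b-3p, with the median of all tested miRNAs at -0.081. That median was 0.19 without scaling. Leaving out 1 array at a time gave -0.107 to 0.053 for miR-23a-3p, -0.059 to 0.065 for miR-23b-3p, -0.031 to 0.092 for miR-24-3p, -0.036 to 0.120 for miR-27a-3p, -0.060 to 0.077 for miR-27b-3p, -0.048 to 0.012 for the miR-23 ratio and 0.024 to 0.087 for the miR-27 ratio. Each time the scaling probes were chosen anew among the arrays left. The lowest value of every member came without tacrolimus 4, where the new scaling lowered all 5 members alike. The member ranges thus mix the scaling with the array left out. Over all settings the miR-27 ratio change lay between 0.013 (outlier spots kept) and 0.096 (other probes). The miR-23 ratio changed by 0.013 with outlier spots kept, by 0.0036 with the other probes and by -0.056 without control 1 and tacrolimus 4. Relative to the median of all tested miRNAs, miR-24-3p and miR-27a-3p lay above it in 24 of 24 settings, miR-27b-3p in 17, miR-23b-3p in 12 and miR-23a-3p in 6. The settings share the same arrays, and some repeat the same differences and median, such as the replicate block and trend and robust moderation. These counts are therefore not independent support. The 6 calls among all miRNAs (limma, 30 at an unadjusted p under 0.05) became 0 with the 75th percentile of all probes, outlier spots kept, averaging of probes, no filter, a floor 2 times as high, no scaling, total gene signal, the deposited table, or trend and robust moderation (2 to 31 unadjusted). They became 1 with normexp and 1 without control 1 and tacrolimus 4, and 0 to 7 without single arrays. They were 8 with median scaling, 7 with quantile normalization, 6 with the members' other probes and 5 with detection on all arrays required. With a replicate block the count was 0 (31 unadjusted) and member differences kept their values. Same-numbered arrays also share a slide column, and their deviations correlated at 0.109, 0.14, 0.112 and 0.0946 over all tested miRNAs and at 0.179 to 0.59 over the 5 members. Not every pair exceeded 0.1, and the labels name no pairing, so they were not treated as pairs. Apart from the new scaling without tacrolimus 4, the cause of these changes was not tested.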

Other observations

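Differences between the tacrolimus and the control array within a slide column varied in sign. In column 1 all 5 members lay below 0, between -0.07 (miR-24-3p) and -0.01 (miR-27a-3p). In column 2 all 5 lay above 0, between 0.12 (miR-23a-3p) and 0.23 (miR-24-3p). Columns 3 and 4 held both signs.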
